A study of Homo sapiens with 6 samples.

Results

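The 73 genes described here encode the machinery that transcribes DNA. They were taken from the array by symbol alone: every probe set with a single gene symbol that begins with POLR, MED, TAF, TCEA, SUPT, GTF2A, GTF2B, GTF2E, GTF2F or GTF3 and goes on with a digit or letter, apart from TAFAZZIN and SUPT16H. They are 73 of the 7713 genes that the array measures under a single symbol, each with 1 probe set, and 69 were bright enough to be tested. The symbols gather more than RNA polymerase II with its Mediator and TAF partners, since subunits of RNA polymerases I and III, their own factors and the mitochondrial polymerase POLRMT match as well. GTF2B itself has no letter after the stem and so falls outside, as do TBP and TFIIH; these are described last, as neighbours.

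The RNA came from A549 cells, an established human lung adenocarcinoma line. The 3 cultures called cisplatin 1 to 3 had been given 50 µM cisplatin for 1 hour, and the 3 called control 1 to 3 growth medium without it. Both groups then spent 10 hours in medium free of the drug, and the series description speaks of 3 independent experiments. All cultures were of this single line, so nothing here speaks for other lung cancers. The genes of keratin 8 and keratin 18, epithelial filament proteins, were bright on the control arrays (mean intensities of 2145 and 5810), but the epithelial adhesion genes CDH1 (37.3) and EPCAM (33.3) were dim. Of 6 markers of cell types the line should lack, PTPRC of blood cells (10.1), VWF of endothelium (13.7) and the fibroblast collagen COL3A1 (1.25) were too dim to test. The other 3, the fibroblast collagen COL1A1 (102), PECAM1 of endothelium (61.2) and CD3E of T cells (39.7), were above the intensity limit and read above CDH1 and EPCAM. Intensities this low therefore do not tell cell types apart here. Of these 3, 0 passed the test between the groups, which does not bear on whether such cells were present.

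RNA polymerase II makes the messenger RNA of nuclear genes. It is placed at a promoter by general factors: TFIID, built of the TATA-binding protein and the TAFs, finds the promoter, TFIIA, TFIIB, TFIIE, TFIIF and TFIIH complete the complex, and Mediator carries signals from activators bound at enhancers. Once the polymerase has left the promoter, TFIIS rescues it when it has backtracked, and DSIF and SPT6 travel with it. Platinum crosslinks in a template strand stop the polymerase, and the stalled enzyme is a signal for transcription-coupled repair; long stalling can end in ubiquitination and loss of the POLR2A protein, which an mRNA array cannot see.

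After cisplatin no gene of this machinery passed the test. Of the 69 tested members 0 were called by limma at an adjusted p of 0.05, where 0.29% of all 6559 tested probe sets were called. Also without adjustment 0 members had a p under 0.05 in either direction, while over all tested probe sets 3.4% did so with a higher and 1.63% with a lower value after cisplatin. The log2 folds of cisplatin over control ran from -0.48 for MED15 to 0.37 for TAF7L, with 41 above and 28 below 0, where 3968 of all 6559 tested probe sets were above 0. Their median was 0.02, against 0.04 over all tested probe sets. On the same arrays CDKN1A, the gene of the cell cycle inhibitor p21, went from 257 ± 21.4 to 1422 ± 48.5 (mean intensity ± SD, n = 3 each), a log2 fold of 2.42 (adjusted p = 4.74e-06).

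Missing the threshold does not show that a gene stayed level, and the intervals say how far each could have moved. The 95% interval of the fold lay wholly within 1.5-fold in either direction for 62 of the 69 members (89.9%) and within 2-fold for all 69. It lay within 1.25-fold for 9 members, so small shifts in most members were not detectable with 3 arrays a group. For all tested probe sets the shares were 13.4% within 1.25-fold, 66.5% within 1.5-fold and 97.4% within 2-fold. The 7 members whose intervals reached beyond 1.5-fold were MED15, POLR2E, GTF3C5 and POLR3G on the lower side and TAF7L, MED4 and MED23 on the higher side. These counts hold for the main fit. For MED15 the lower limit was -0.99 on the log2 scale, only just inside 2-fold. With the offset halved (log2 -0.53, SE 0.25) or without cisplatin 2 (log2 -0.71, SE 0.19) its interval reached past 2-fold. A fold here is taken after an offset of 11.8 was added to the intensities, which shrinks the folds of dim genes.

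**Figure D1:**
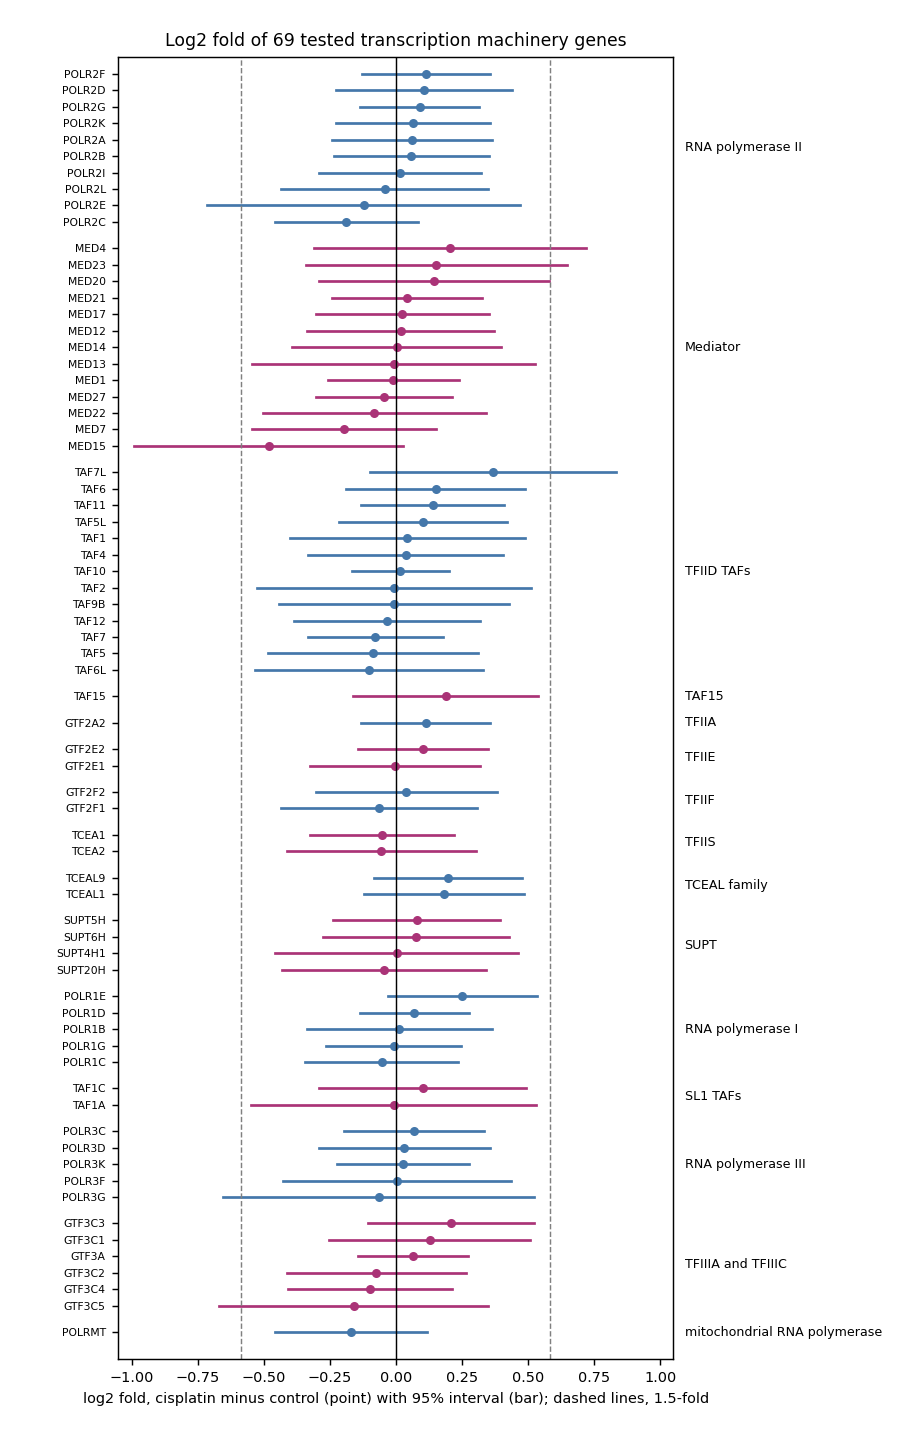
Log2 fold of cisplatin over control (horizontal axis) for each of the 69 tested members, grouped by role, with points for the fitted fold and bars for its 95% interval; dashed lines mark 1.5-fold. Every bar crosses 0, and the bars of MED15 and TAF7L reach farthest out.

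**Figure D2:**
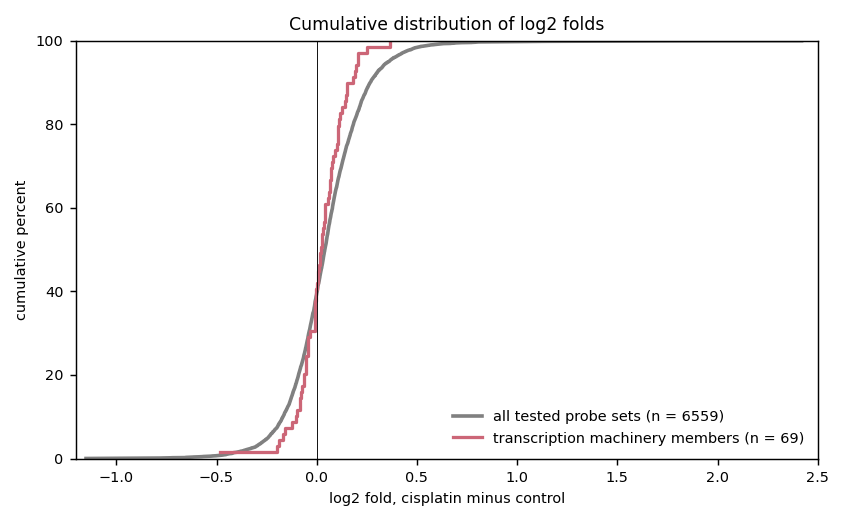
Cumulative percentage (vertical axis) of log2 folds of cisplatin over control (horizontal axis) for the 69 tested members and for all 6559 tested probe sets. The members run from -0.48 to 0.37, while the full set runs from -1.15 to 2.42.

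Promoter sequences from RefSeq (GRCh38.p14) were found for 55 of the 69 tested members, and 3 are printed here to show what stands before the member with the lowest fold, MED15, the catalytic subunit gene POLR2A, and the member with the highest fold, TAF7L. Each is the 250 bases that end just before the annotated start, read 5′ to 3′ on the strand of the gene, with capitals for any match on either strand to 5 motifs. The TATA box, bound by TBP, was searched as TATAAA. The GC box, bound by factors of the SP family, was searched as GGGCGG, and the CCAAT box of NF-Y by its name. The core that ETS factors bind was searched as CCGGAAG, and the E-box of USF and MYC as CACGTG. No motif of the 5 was required to stand clear of another. MED15 lies on the plus strand at chr22:20507360-20507609, POLR2A on the plus strand at chr17:7484116-7484365 and TAF7L on the minus strand at chrX:101293084-101293333.
MED15: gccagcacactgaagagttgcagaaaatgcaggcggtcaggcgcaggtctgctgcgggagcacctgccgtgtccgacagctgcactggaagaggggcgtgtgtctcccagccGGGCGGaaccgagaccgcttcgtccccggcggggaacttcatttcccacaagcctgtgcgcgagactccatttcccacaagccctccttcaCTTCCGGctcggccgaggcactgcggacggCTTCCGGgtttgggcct
POLR2A: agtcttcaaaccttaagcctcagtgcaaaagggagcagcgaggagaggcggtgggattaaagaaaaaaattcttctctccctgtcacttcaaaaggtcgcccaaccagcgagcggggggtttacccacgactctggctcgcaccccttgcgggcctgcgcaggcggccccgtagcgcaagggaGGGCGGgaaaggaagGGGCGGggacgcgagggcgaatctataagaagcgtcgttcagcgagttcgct
TAF7L: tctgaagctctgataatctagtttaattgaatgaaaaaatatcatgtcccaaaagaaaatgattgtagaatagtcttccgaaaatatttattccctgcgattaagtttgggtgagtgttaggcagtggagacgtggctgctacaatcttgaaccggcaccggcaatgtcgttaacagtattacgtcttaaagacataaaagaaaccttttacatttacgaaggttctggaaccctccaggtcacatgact

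The MED15 window held 1 GC box and 2 ETS cores, the POLR2A window 2 GC boxes, and the TAF7L window none of the 5 motifs, with a GC content of 38.4% against 65.2% for MED15 and 59.6% for POLR2A. Among the 55 member promoters 2 (3.64%), those of GTF3C3 and MED7, held TATAAA, where 7.72% of 4790 promoters of tested genes and 11.1% of all 27305 RefSeq promoters did. The ETS core stood in 15 (27.3%), against 13.2% and 8.82%. The GC box stood in 31 (56.4%), against 63.0% and 42.3%, CCAAT in 14 (25.5%), against 35.5% and 33.0%, and CACGTG in 7 (12.7%), against 8.31% and 6.49%. These are counts of letters in a window, with no test, and a match is not a bound site.

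Of the RNA polymerase II subunits on the array all 10 were tested and 0 were called. Their median log2 fold was 0.06, with 7 above and 3 below 0, and its sign turned in 2 of the alternatives given below. POLR2A, which carries the catalytic centre and the repeated C-terminal tail, read 132, 115 and 111 in controls (arrays 1, 2 and 3, the order used throughout) and 124, 135 and 116 after cisplatin. The groups overlapped throughout, with a log2 fold of 0.06 (95% interval -0.24 to 0.36, adjusted p = 0.999). POLR2B, the other large subunit around the active site, read 503, 633 and 459 without and 583, 543 and 522 with the drug, and its log2 fold was also 0.06 (SE 0.13).

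POLR2C, an assembly scaffold of the enzyme, had the lowest fold of the 10. It read 406, 402 and 332 in controls and 320.3, 322 and 351 after cisplatin (log2 -0.19, SE 0.12, unadjusted p = 0.153, adjusted p = 0.999). Control 3 lay among the treated values. POLR2F, a small subunit common to the nuclear polymerases, read 323, 298 and 322 in controls and 328, 357 and 339.6 after the drug. All 3 treated values were above all 3 controls, but by little (log2 0.11, SE 0.11). POLR2D and POLR2G, which form the stalk that meets the emerging RNA, had log2 folds of 0.11 and 0.09, POLR2I, a zinc-binding subunit that aids fidelity, 0.02, and POLR2K and POLR2L, shared by the nuclear polymerases, 0.06 and -0.04. POLR2E, another shared subunit, was the most scattered, with 95.2, 84.2 and 40.0 in controls and 51.1, 74.3 and 64.6 after cisplatin (95% interval -0.71 to 0.47).

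Control 3 was the lowest of the controls for 8 of the 10 RNA polymerase II subunits, where the same held for 32.6% of all tested probe sets. The sign of the subunits' median fold turned without that array and also with all arrays kept but centred on their medians. Without control 3 the median was -0.03 and 4 of 10 folds were above 0. With arrays centred on their medians it was -0.01 and 3 were above 0.

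Of the 14 Mediator subunit genes 13 were tested, and MED16 was too dim. Their median log2 fold was 0.00, with 7 above and 6 below 0, and 0 were called. The sign of this median also turned among the alternatives. It was -0.07 with arrays centred on their medians, -0.09 with the ACTB ratio described below as a covariate and 0.08 without control 2. MED15, a subunit of the tail that binds activators, had the lowest p of all members. It read 81.2, 56.3 and 56.3 in controls and 37.1, 62.2 and 32.0 after cisplatin. Cisplatin 2 lay above 2 of the 3 controls, the other treated arrays below all of them. The log2 fold was -0.48 (SE 0.23, 95% interval -0.99 to 0.03), with an unadjusted p of 0.0612, the 407th lowest of 6559, and an adjusted p of 0.977. Without cisplatin 2 it was -0.71 with an unadjusted p of 0.00602 and an adjusted p of 0.506, which still missed the threshold. It was -0.33 without control 1 (unadjusted p = 0.197) and -0.33 without cisplatin 3 (unadjusted p = 0.212). With the ACTB ratio described below as a covariate it was -0.28 (unadjusted p = 0.187).

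In the middle module of Mediator, MED7 read 146, 187 and 205 in controls and 163, 136 and 164 after the drug (log2 -0.20, SE 0.16). MED4 read 67.3, 74.7 and 95.3 against 132, 64.6 and 90.4, a log2 fold of 0.21 (SE 0.23), with cisplatin 1 far above the other treated arrays. MED21 had a log2 fold of 0.04. In the head, MED17 had 0.02, MED20 0.14 and MED22 -0.08. MED14, the backbone that joins the modules, read 64.6, 94.0 and 71.7 in controls and 85.9, 63.2 and 80.9 after cisplatin, a log2 fold of 0.00 (95% interval -0.39 to 0.40).

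MED1, the subunit that nuclear receptors contact, read 435, 497 and 515 without and 511, 471 and 453 with the drug. Its interval, -0.26 to 0.24 on the log2 scale, was among the narrow ones of the complex. MED23, which links Mediator to signal-driven activators, read 52.9, 97.8 and 92.0 against 109, 78.6 and 81.0 (log2 0.15, SE 0.22), and MED27 had a log2 fold of -0.04. The kinase module, which can detach and hold the polymerase off Mediator, was represented by MED12 (log2 0.02) and MED13 (-0.01, SE 0.24). MED13 varied far more within the groups than between them, with 289.7, 525 and 544 in controls and 555, 369.8 and 396 after cisplatin.

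**Figure D3:**
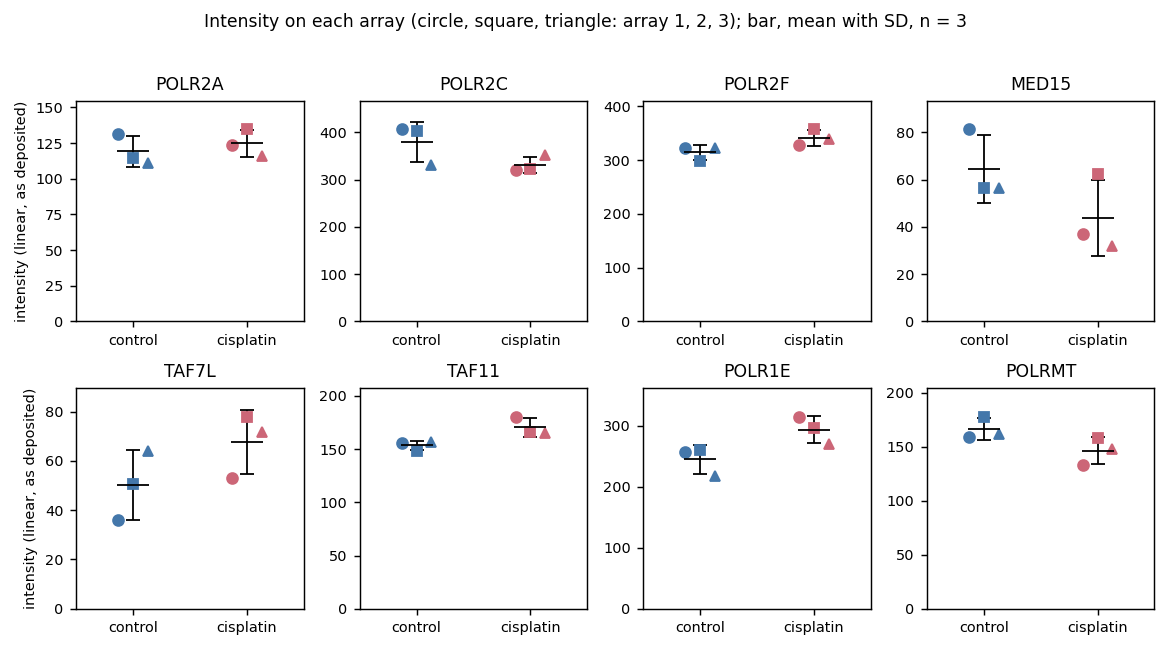
Deposited linear intensity (vertical axis, from 0) of 8 members on each array, with circles, squares and triangles for arrays 1, 2 and 3 of each group and a bar for the mean with SD (n = 3). The treated points lie above all controls for POLR2F, TAF11 and POLR1E and below all of them for POLRMT; for POLR2A, POLR2C, MED15 and TAF7L the groups overlap.

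Of the 14 TFIID TAF genes, with those of its relatives in SAGA, 13 were tested, with TAF13 below the intensity limit, and 0 were called. The median log2 fold was 0.02, with 7 above and 6 below 0. Its sign turned among the alternatives too, at -0.05 with arrays centred on their medians and 0.12 without control 2. TAF1, the largest TAF, was dim: it read 21.4, 28.6 and 22.9 in controls and 20.8, 32.5 and 23.5 after cisplatin (log2 0.04, 95% interval -0.40 to 0.49). TAF2, which touches the initiator element, read 136, 234 and 225 against 258, 161 and 170.0 (log2 -0.01, SE 0.23), again with more spread inside the groups than between them. TAF10, a histone-fold subunit that TFIID and the SAGA coactivator share, varied little, at 992 ± 41.7 and 1004 ± 20.2 (log2 0.02, 95% interval -0.17 to 0.20).

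TAF7L, a germ cell relative of TAF7, had the highest fold of all members, from 36.0, 50.7 and 64.0 to 53.0, 78.0 and 71.6 (log2 0.37, SE 0.21, unadjusted p = 0.110, adjusted p = 0.999). Control 3 exceeded cisplatin 1, so the groups overlapped. The log2 fold was 0.19 without control 1, 0.52 without control 3 and 0.09 with control 1 and cisplatin 2 both left out. TAF7 itself, a regulator of TAF1, went from 543 ± 62.7 to 512 ± 18.8 (log2 -0.08). TAF11, which pairs with TAF13, read 155, 149 and 157 in controls and 181, 166 and 165 after cisplatin, with no overlap but a log2 fold of 0.14 (SE 0.12). TAF4, TAF5, TAF6 and TAF12, which form the histone-fold and scaffold core, had log2 folds of 0.04, -0.09, 0.15 and -0.03, and TAF9B, a relative of TAF9, had -0.01. TAF5L and TAF6L, which take the places of TAF5 and TAF6 in SAGA, had 0.10 and -0.10. TAF15, an RNA-binding protein of the FET family that was found with TFIID, went from 90.6 ± 17.9 to 104 ± 4.02 (log2 0.19, SE 0.16), its treated values lying between those of control 2 and the other controls.

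Some members were lowest on the same array of each group. Of all 69 tested members 23 (33.3%) had their lowest control value on control 1 and their lowest treated value on cisplatin 2, against 23.6% of all tested probe sets. Among the 26 Mediator and TFIID genes there were 12 (46.2%), MED13 and TAF2 among them. Highest on both arrays were 4 of the 26 (15.4%), MED15, MED22, MED27 and TAF6L, against 18.3% of all tested probe sets. The others of the 23 included both SL1 TAF genes, 2 of 5 RNA polymerase III genes and 2 of 6 TFIIIA and TFIIIC genes. Of the 10 RNA polymerase II subunits 0 were lowest and 4 (40.0%) highest on both. The median deviation of the 26 Mediator and TFIID genes from their own means was -0.14 on control 1 and -0.06 on cisplatin 2, where all tested probe sets had -0.05 and 0.03. Control 1 and cisplatin 2 are the arrays that stood apart from the other 4 on the first principal component of all tested probe sets. Both also had the lowest ratios of 3′ to 5′ signal for ACTB, a common gauge of RNA quality, at 2.20 and 2.67 against 2.94 to 3.67 on the others. The pattern was noticed in these data; neither the difference between the groups of genes nor the part of RNA quality in it was tested.

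With that ratio as a covariate, 5 members had an unadjusted p under 0.05, all lower after cisplatin: MED13 (log2 -0.33), POLR3G (-0.40), TAF2 (-0.31), MED7 (-0.33) and TCEA1 (-0.19). In that fit 12.7% of all tested probe sets had such a p, and 0 members passed the adjusted threshold, the lowest adjusted p being 0.231 for MED13. With control 1 and cisplatin 2 both left out 0 members were called and MED15 was the 1 member with an unadjusted p under 0.05 (log2 -0.56, adjusted p = 0.465), where 7.14% of all tested probe sets had such a p.

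**Figure D4:**
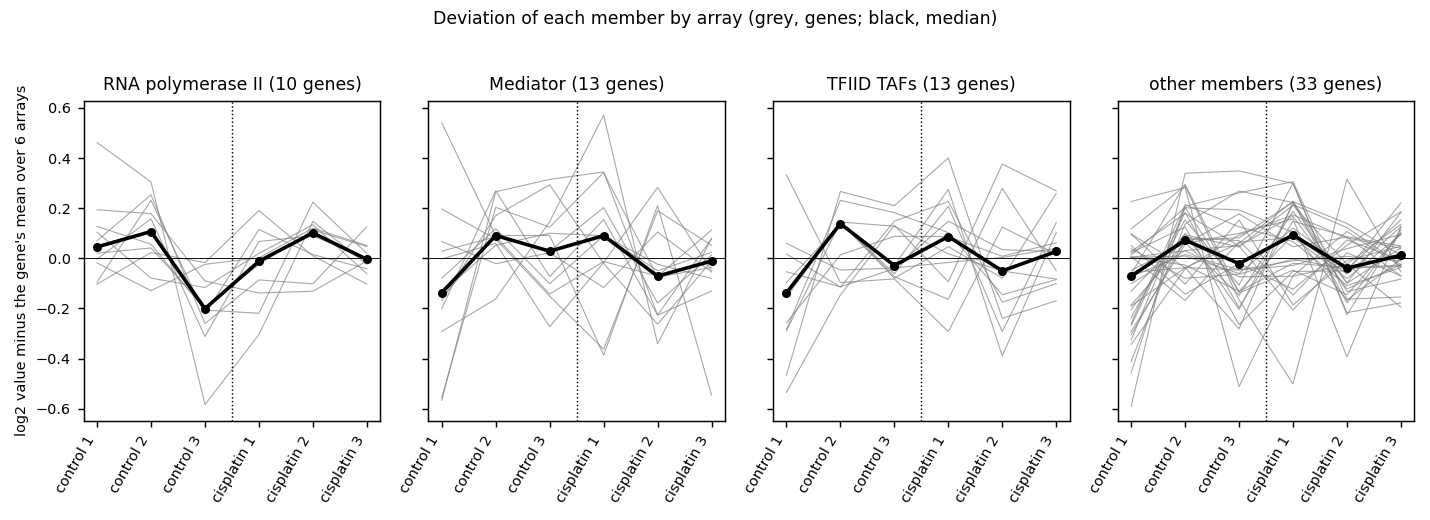
Log2 value of each tested member minus its own mean over 6 arrays (vertical axis) on each array (horizontal axis), with grey lines for genes and a black line for the median of the group. RNA polymerase II subunits dip on control 3 (median -0.20), while Mediator and TFIID TAF genes dip on control 1 (medians of -0.14 each).

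The smaller general factors had 0 calls. GTF2A2, the small TFIIA subunit, read 904, 1007 and 1078 in controls and 1212, 964 and 1064 after cisplatin (log2 0.11, SE 0.11), and GTF2A1 was too dim to test. In TFIIE, which brings in TFIIH, GTF2E2 went from 377 ± 18.9 to 407 ± 28.7 (log2 0.10, SE 0.11) and GTF2E1 had a log2 fold of -0.00. In TFIIF, which escorts the polymerase to the promoter, GTF2F1 read 65.2, 87.0 and 61.3 against 66.0, 61.0 and 74.4 (log2 -0.06, SE 0.17), and GTF2F2 had 0.04.

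Among elongation factors 0 were called. TCEA1, the main form of TFIIS, read 1165, 1622 and 1524 in controls and 1463, 1294 and 1361 after cisplatin (log2 -0.05, 95% interval -0.33 to 0.22), and TCEA2, another TFIIS gene, had -0.06. SUPT5H, the large subunit of DSIF, read 326, 351 and 265 against 309, 309 and 376 (log2 0.08, 95% interval -0.24 to 0.40). Its partner SUPT4H1 had a log2 fold of 0.00, SUPT6H, the histone chaperone SPT6, 0.08, and the SAGA subunit gene SUPT20H -0.05, while SUPT3H was not tested. Among the TCEAL genes, named for their likeness to TFIIS, TCEAL9 went from 580.5 ± 89.0 to 662 ± 32.1 (log2 0.20, SE 0.12) and TCEAL1 from 227 ± 22.7 to 259 ± 29.8 (log2 0.18, SE 0.14). In both the ranges of the groups overlapped and the adjusted p was 0.999. TCEAL9 was at 0.07 without control 1, and TCEAL1 at 0.28 without cisplatin 2.

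RNA polymerase I makes ribosomal RNA in the nucleolus. Of its 5 subunit genes 0 were called, with a median log2 fold of 0.01. POLR1E, which helps the enzyme engage its promoter, had the second lowest p of the members. It read 257, 260.5 and 218 in controls and 315, 296 and 270.0 after cisplatin, all 3 treated values above all 3 controls (log2 0.25, SE 0.13, 95% interval -0.03 to 0.53, unadjusted p = 0.0743, adjusted p = 0.999). POLR1C and POLR1D, shared with RNA polymerase III, had log2 folds of -0.05 and 0.07, the large subunit gene POLR1B 0.01 and POLR1G -0.01. TAF1C and TAF1A, of the SL1 factor that binds ribosomal DNA promoters, had 0.10 (SE 0.17) and -0.01.

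RNA polymerase III makes transfer RNA and other small RNAs. POLR3C, of the subcomplex that opens the promoter, went from 182 ± 6.13 to 191 ± 8.71 (log2 0.07, SE 0.12), and POLR3D, POLR3F and POLR3K had 0.03, 0.00 and 0.03. POLR3G, an exchangeable subunit seen in dividing and stem-like cells, read 51.8, 109 and 110.1 in controls and 106, 70.6 and 72.8 after the drug, with control 1 and cisplatin 2 again lowest (log2 -0.06, SE 0.26). In TFIIIC, which binds the promoters inside transfer RNA genes, GTF3C3 went from 166 ± 22.3 to 193 ± 17.0 (log2 0.21, SE 0.14), GTF3C4 from 138 ± 13.7 to 128 ± 11.6 (-0.10, SE 0.14) and GTF3C5 from 50.6 ± 9.72 to 45.1 ± 15.8 (-0.16, SE 0.23). GTF3C1 and GTF3C2 had 0.13 and -0.07, and GTF3A, which starts transcription of ribosomal RNA genes outside the nucleolus, was at 1219.8 ± 101 and 1275 ± 86.0 (0.06, SE 0.09). Over the 6 genes 3 folds were above and 3 below 0.

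POLRMT, the polymerase of the mitochondrial genome, read 159, 178 and 162 in controls and 133, 158 and 148 after cisplatin. It was the 1 member with all 3 treated values below all 3 controls, the closest pair being 159 and 158 (log2 -0.17, SE 0.13, adjusted p = 0.999). Such a separation downward was seen in 1.45% of the members and 3.57% of all tested probe sets. Upward it was seen in POLR1E, POLR2F and TAF11, 4.35% of the members, against 7.42% of all. These shares rest on 1 and 3 genes, and their distance from the background was not tested.

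Gene length, which the symbols did not use, bore little relation to the folds. The 69 genes span 1.17 kb (POLR2I) to 220 kb (MED27) in RefSeq, with a median of 23.9 kb against 26.4 kb over all 5816 tested genes. Across the members the log2 fold and the log2 span had a Pearson r of -0.04 and a Spearman rho of 0.02, and across all tested genes -0.09 and -0.08. These are correlations across genes measured on the same 6 arrays, given as a description.

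Genes that work with this machinery but carry other names were counted in the same way, and of 49 tested 0 were called and 0 had an unadjusted p under 0.05. Over all tested probe sets the shares were 0.29% and 5.03%, so few would be awaited among 49 genes. The median log2 fold of the 49 was 0.02. GTF2B, the gene of TFIIB, had a log2 fold of 0.11 (SE 0.16) and TBP, the TATA-binding protein, 0.12 (SE 0.14). The log2 folds of the 5 tested promoter recognition genes ran from 0.04 to 0.18. The 8 tested genes of TFIIH and its kinase had a median of 0.02. The 15 tested elongation genes had a median of 0.09, with CDK9, the kinase that releases paused polymerase, at -0.11 (SE 0.19), its cyclin gene CCNT1 at 0.23 (SE 0.18) and HEXIM1, which holds that kinase inactive, at 0.13 (SE 0.12). CDK8 and CCNC, of the Mediator kinase, had 0.02 and 0.10. The 7 tested SAGA and ATAC partners had a median of -0.03, the 5 SNAPC genes -0.05, and the RNA polymerase I factor gene UBTF -0.06.

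Genes that remove phosphate from the polymerase tail, or help build the enzyme, had a median of -0.13 over 6 tested. CTDSP1, a small phosphatase of the tail, read 192, 189.5 and 188 in controls and 154, 181 and 152 after cisplatin (log2 -0.22, SE 0.13, adjusted p = 0.999). CTDP1, the main phosphatase that recycles the enzyme, read 101, 96.5 and 92.9 against 88.8, 74.7 and 82.6 (log2 -0.22, SE 0.14), and CTDSP2 read 249, 247 and 230.4 against 216, 228 and 207 (log2 -0.15, SE 0.12). In these 3, of 49 tested in all the lists, every treated value was below every control, and 0 passed the test. Over all tested probe sets the share was 3.57%. None of the 49 had every treated value above every control, against 7.42% of all tested probe sets. GPN3, which helps import the polymerase, lay the other way at 0.22 (SE 0.15).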

How the data were processed

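Total RNA of 6 A549 cultures was labelled with biotin after oligo-dT priming, per the labels' protocols, and hybridised to oligonucleotide arrays. The authors deposited linear probe set intensity values, of which 723 of 52758 are at or below 0. How they were summarised and scaled, and on which build, is not given in the sources used here. Precision is limited by the number of arrays.

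Values under 0 were set to 0, an offset of 11.8 (the 10th percentile of positive values) was added and log2 taken. No scaling was applied, as the arrays differed by at most 0.15 (limit 0.3) in their log2 75th percentile. Of 8746 probe sets without the 47 controls, the dimmest 25% by mean log2 value was set aside and 6559 were tested in limma 3.58.1 (R 4.3.3), with eBayes and an intensity trend, two-sided, with Benjamini-Hochberg adjustment over all of them. Residual degrees of freedom were 4 and prior ones 5.54, and the script was tested on simulated data beforehand. An exact permutation test of 3 against 3 arrays cannot go below 0.1 and was not used. That the cultures were separate rests on the series description alone. Symbols came from the platform annotation, and spans and promoters from RefSeq GRCh38.p14. Figures used matplotlib 3.10.9 under Python 3.11.15.

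Genes named with full values were those with the 8 highest and 8 lowest folds, the lowest p in each role, any that passed, and POLR2A, POLR2B, MED1, MED14, TAF1, SUPT5H, TCEA1 and GTF2F1. TAF1C and TAF6L, also chosen this way, are given without their intensities. Full values of MED13, TAF2, TAF7, TAF10, TAF11, GTF3A, POLR2F, POLR3G and the phosphatase genes were added once seen. The members and lists were chosen with earlier results of these data known. The labels do not say whether arrays with equal replicate numbers share an experiment. Deviations of same-numbered arrays from their group means correlated at -0.56, -0.31 and -0.12, which cannot settle it. Alternatives covered scaling, offset, filter, variance prior, an ordinary test per probe set, the replicate block, the 3′/5′ ratio and arrays left out.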

Additional observations from a re-analysis of the deposited data

How the results depend on the processing

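No member passed the adjusted threshold under any of the 18 alternative settings that were run, and the lowest adjusted p reached was 0.231, with the 3′/5′ ratio as a covariate. Counts at an unadjusted p under 0.05, of which there were 0, became 1 lower member (MED15) with arrays centred on the median, with quantile normalization, and with control 1 and cisplatin 2 both left out, 1 higher member (TAF11) with the ordinary test per probe set, and 5 lower members with the covariate; the cause was not tested. Over all probe sets tested in those fits, in the same order, 4.41%, 5.08%, 7.14%, 6.21% and 12.7% had such a p in either direction. With single arrays left out the counts were 0 to 1 higher and 0 to 1 lower, the higher being TAF7L without control 3 or cisplatin 1 and the lower MED15 without cisplatin 2. In those 3 fits, in that order, 4.25%, 4.67% and 6.45% of all tested probe sets had such a p in either direction. With a filter at the 50th percentile MED15 and TAF7L were not tested. The median log2 fold of the members, 0.02, was -0.05 with arrays centred on the median and -0.02 with a common 75th percentile or quantile normalization, where the median of all probe sets was -0.03, -0.00 and -0.00. It ran from 0.002 to 0.08 with each array left out, so its sign turned with the scaling but not with a single array left out. For scale, the members' median log2 intensity had an SD of 0.09 between arrays, pooled over the groups. With the replicate block 0 members were called and 5 probe sets in all, against 19 without it. The labels do not say whether equal numbers share an experiment. Each member has a single probe set, so averaging probe sets changes nothing. Intensity over background limits dim members such as TAF1, and MED16, SUPT3H, GTF2A1 and TAF13 were too dim to test.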
